A study of Mus musculus with 20 samples.

Results

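The effect of vincristine alone on the mouse testis was followed across every gene of the count table, by setting 4 testis libraries of vincristine-treated mice without leukaemia (VCR) against 4 testis libraries of normal control mice (NC). These are 8 of the 20 libraries of a study that also holds 3 groups with leukaemia, and they were taken by their group labels. All mice were labelled as 6-week-old males of the immunodeficient NOD scid gamma (NSG) strain, which lacks mature T, B and NK cells. The VCR mice were given vincristine sulfate intraperitoneally, at a dose of 0.5 mg/kg each week over 3 weeks with the first on day 69, and the controls were given saline. Whether 6 weeks is the age at the start or at collection, and what day 69 is counted from, is not stated here. Whole snap-frozen testes gave poly(A)-selected RNA, so each library mixes all testicular cell types. The labels do not state that the 4 libraries of a group came from separate animals. The p-values of genes rest on a spread pooled over all 20 libraries, and exact permutation tests use these 8 alone. The table held 22066 gene symbols, of which 16534 passed the filter on low counts and were tested.

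Vincristine binds tubulin and blocks the growth of microtubules, on which the mitotic and meiotic spindles and the reshaping of the spermatid head depend. In the seminiferous tubule, spermatogonia divide, enter meiosis as spermatocytes and mature through round and elongating spermatids, supported by Sertoli cells. Leydig cells, which make testosterone, lie between the tubules with vessels, fibroblasts and macrophages. Germ cells make most of the RNA of an adult testis. Many housekeeping enzymes there have a second gene copy used by meiotic and later germ cells, since the X chromosome is silenced during meiosis.

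Most of the transcriptome differed. Of the 16534 genes tested, 12851 (77.7%) were called at an adjusted p under 0.05, 6960 of them higher (42.1%) and 5891 lower (35.6%) in VCR than in NC testes. The values of the groups did not overlap for 12219 genes (73.9%), 6564 with all VCR libraries higher (39.7%) and 5655 with all lower (34.2%). Tested against a change of 2-fold, 6935 genes (41.9%) were called, 3894 higher (23.6%) and 3041 lower (18.4%). Of the 12851 called genes, 54.2% were higher. This split depended on the scaling. Library size alone put 8309 genes higher and 4480 lower, and scaling to 20 Sertoli cell genes put 1202 higher and 12415 lower. Sertoli scaling moved the log2 fold change of the median gene by -1.85, so a gene or list with a log2 fold change under about that size turns negative with it. Values below are log2 fold changes, VCR over NC, under TMM scaling, and the Sertoli-scaled value is given where the direction matters. In whole-tissue RNA, fewer cells of a type and less RNA per cell cannot be told apart.

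The 4 VCR libraries were spread along one order. Across the 3041 genes that fell beyond 2-fold, the median level was 3.0%, 16.1%, 30.9% and 24.3% of the NC mean in VCR libraries 1 to 4. VCR 1 had the lowest value of the group for 90.3% of these genes. Across the 3894 genes that rose beyond 2-fold, the median level was 539%, 504%, 327% and 363% of the NC mean in the same libraries. VCR 1 was the highest for 63.7% of these and VCR 3 the lowest for 66.5%. The biological coefficient of variation was 47.1% within VCR and 14.0% within NC libraries. It was 29.8% over all 5 groups, which the gene tests pool, so the spread within VCR was wider than the pooled one. Libraries held 10645937 to 14029430 counts in VCR and 9425158 to 14976476 counts in NC. The mitochondrial share of counts was 8.28% ± 2.62 in VCR and 2.23% ± 0.316 in NC libraries (SD, n = 4 each; exact two-sided permutation p = 0.029, the smallest that 4 against 4 allows). Its part in the gene results was not tested.

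Promoter sequences of 5 genes are given because the matched letters differed in frequency between genes that fell and genes that rose. They run 5′ to 3′ on the gene's strand, from 250 bases before to 50 bases after the annotated start (RefSeq, GRCm38.p6), with the matches in capitals. Sun5, which anchors the sperm head to the tail (chr2:153871035-153871334, minus strand), and Izumo1, the sperm protein that binds the egg (chr7:45621561-45621860, plus strand), hold TGACNTCA, the letters of a cAMP response element with 1 free base.
Sun5: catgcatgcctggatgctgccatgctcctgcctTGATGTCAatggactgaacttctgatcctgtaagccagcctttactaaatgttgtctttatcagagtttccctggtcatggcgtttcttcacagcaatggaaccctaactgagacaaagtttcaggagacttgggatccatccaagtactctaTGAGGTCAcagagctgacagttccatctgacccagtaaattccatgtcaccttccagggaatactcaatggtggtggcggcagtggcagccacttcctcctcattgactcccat
Izumo1: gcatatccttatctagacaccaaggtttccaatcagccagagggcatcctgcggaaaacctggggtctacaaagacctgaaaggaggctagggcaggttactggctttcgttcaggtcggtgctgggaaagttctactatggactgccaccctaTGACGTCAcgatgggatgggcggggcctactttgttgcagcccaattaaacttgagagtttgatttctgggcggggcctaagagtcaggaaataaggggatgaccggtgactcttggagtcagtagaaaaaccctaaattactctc
Apobec4, a member of a cytidine deaminase family (chr1:152750301-152750600, plus strand), holds GTTGCC followed by ATGG, part of the site known for RFX factors, which act on ciliary genes.
Apobec4: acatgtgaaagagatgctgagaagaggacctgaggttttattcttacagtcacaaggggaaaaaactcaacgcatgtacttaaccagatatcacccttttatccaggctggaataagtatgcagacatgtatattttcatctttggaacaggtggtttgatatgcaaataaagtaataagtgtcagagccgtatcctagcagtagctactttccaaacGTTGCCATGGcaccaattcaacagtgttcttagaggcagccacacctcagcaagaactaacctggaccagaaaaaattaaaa
Ctss, the lysosomal protease cathepsin S (chr3:95526536-95526835, plus strand), and Bst2, the antiviral membrane protein tetherin (chr8:71537423-71537722, minus strand), hold GAAA, any 2 bases and GAAA, the letters of an interferon response element. In Bst2 the capitals join a pair of overlapping matches.
Ctss: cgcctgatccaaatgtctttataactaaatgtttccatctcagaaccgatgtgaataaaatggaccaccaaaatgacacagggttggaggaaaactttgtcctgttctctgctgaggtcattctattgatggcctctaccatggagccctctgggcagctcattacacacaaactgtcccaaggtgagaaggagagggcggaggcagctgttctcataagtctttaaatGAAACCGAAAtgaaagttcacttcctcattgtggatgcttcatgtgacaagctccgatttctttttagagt
Bst2: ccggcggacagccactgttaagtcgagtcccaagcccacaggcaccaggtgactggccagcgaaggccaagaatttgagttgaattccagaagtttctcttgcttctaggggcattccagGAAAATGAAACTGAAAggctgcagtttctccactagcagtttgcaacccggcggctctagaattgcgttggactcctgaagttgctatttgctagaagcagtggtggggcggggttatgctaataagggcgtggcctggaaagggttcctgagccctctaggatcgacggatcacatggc

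The genes behind these promoters moved far. Sun5 had 0.229, 6.99, 4.66 and 7.99 CPM (counts relative to the TMM-scaled library size) in VCR libraries 1 to 4, against 153, 138, 136 and 133 CPM in NC libraries 1 to 4. Izumo1 had 0.686, 8.89, 7.34 and 9.66 CPM in VCR, against 151, 137, 144 and 149 CPM in NC libraries. Every VCR library lay far below every NC library, and VCR 1 was the lowest for both. Ctss had 98.7, 73.9, 52.1 and 58.6 CPM in VCR, against 6.7, 7.43, 5.91 and 4.88 CPM in NC libraries. Bst2 had 101 to 201 CPM in VCR and 9.89 to 17.3 CPM in NC libraries. Both were highest in VCR 1, and no VCR library overlapped the NC range.

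Across the 12787 tested genes with a promoter in the RefSeq table, searched on both strands, TGACNTCA was in 16.6% of the promoters of genes lower beyond 2-fold, in 7.18% of those of genes higher beyond 2-fold and in 9.33% of all. The RFX letters were in 1.62% of the lower, 0.266% of the higher and 0.657% of all. The interferon response letters were in 3.51% of the lower, 4.92% of the higher and 3.64% of all. Of the other letter patterns among the 19 searched, CC, any 6 bases and GG were in 78.4% of the lower, 88.2% of the higher and 86.2% of all, and the letters TGACG in 26.2%, 27.2% and 31.3%. The CCAAT box was in 44.2% of the lower, 41.2% of the higher and 42.7% of all, and the NF-kappa B element in 0.439%, 0.731% and 0.532%. TGACNTCA includes the palindrome TGACGTCA, which was in 3.38%, 2.29% and 3.13% of these sets. A match is a run of letters and says nothing of whether a factor is bound.

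Marker lists of meiotic and later germ cells fell, and those of most somatic cells rose. Of 17 elongating spermatid genes all 17 fell, with a median log2 fold change of -2.29, and of 16 round spermatid genes all 16 fell, with a median of -3.25. Of 15 pachytene spermatocyte genes 13 fell, with a median of -1.88. All 14 Leydig cell genes rose, with a median of 2.83 (Sertoli-scaled 0.90), and all 20 Sertoli cell genes rose, with a median of 1.92. The Sertoli-scaled median of 0.01 for the Sertoli list is built in, since these genes set that scaling. Of 15 macrophage genes 14 rose, with a median of 2.97 (Sertoli-scaled 1.07). The median over all 16534 genes was 0.10. No list was chosen blind to these data, and the lists are described by counts and medians alone.

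Spermatogonial markers were called in both directions, beside 42.1% of all genes higher and 35.6% lower. Of 11 undifferentiated spermatogonia genes tested 4 rose and 2 fell, and of 10 differentiating spermatogonia genes 3 rose and 4 fell, with medians of 0.59 and -0.11 (Sertoli-scaled -1.22 and -1.94). Of 16 leptotene and zygotene genes 10 fell and none rose, and without VCR 1 the count of falls was 5. Among the movers, Tspan8, a tetraspanin of spermatogonial stem cells, had 12.9, 9.04, 4.39 and 7.23 CPM in VCR, against 0.244, 1.18, 1.07 and 0.975 CPM in NC libraries. Kit, the stem cell factor receptor, had 108, 106, 84.3 and 84.7 CPM in VCR, against 13, 10.7, 11 and 11 CPM in NC libraries. Kit is also known from Leydig cells, whose list rose with it. Dmrtb1, a transcription factor of the switch from mitosis to meiosis, had 62.3, 98.3, 201 and 150 CPM in VCR, against 403, 393, 377 and 395 CPM in NC libraries, with VCR 1 again the lowest.

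Markers of the tubule wall, vessels and fibroblasts had members in both directions. Of 14 blood endothelium genes 11 rose and 1 fell (median 1.67, Sertoli-scaled -0.23), and of 12 interstitial fibroblast genes 9 rose and 1 fell (median 1.61, Sertoli-scaled -0.29). Of 10 peritubular and smooth muscle genes 7 rose and 1 fell, with a median of 1.20 that turned to -0.71 under Sertoli scaling. All 6 pericyte genes tested rose (median 2.17, Sertoli-scaled 0.28). The single falling members were Actg2, Pi16 and Sox17, named after their values were seen, like Prox1 below.

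Actg2, the gamma actin of enteric smooth muscle, had 7.39, 31.9, 60.3 and 38.9 CPM in VCR, against 221, 191, 197 and 200 CPM in NC libraries. Acta2, the alpha actin of vascular and peritubular smooth muscle, had 316, 345, 189 and 247 CPM in VCR, against 85, 77.6, 80.5 and 80.6 CPM in NC libraries, and its log2 fold change of 1.76 (SE 0.19) became -0.16 under Sertoli scaling. These 2 smooth muscle actins therefore moved apart under TMM scaling, each without overlap between the groups. Sox17, an endothelial transcription factor, averaged 1.18 ± 1.22 CPM in VCR and 11.1 ± 5.93 CPM in NC libraries (SD, n = 4 each). Pi16, a fibroblast surface marker, averaged 2.17 ± 0.616 CPM in VCR and 12.7 ± 4.09 CPM in NC libraries. Prox1, the transcription factor of lymphatic endothelium, had 0.229 to 1.37 CPM in VCR and 8.24 to 10.5 CPM in NC libraries, while 3 of 7 lymphatic genes rose. The log2 fold changes were -3.22 (SE 0.83) for Sox17, -2.54 (SE 0.39) for Pi16 and -3.28 (SE 0.46) for Prox1, and which cells of the NC testis carry their RNA was not tested.

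Markers of blood cells and nerve were read in the same way. The NSG strain lacks mature T, B and NK cells, so the T, NK and B lists are not read as amounts of lymphocytes. Which cells of these testes carry the RNA of these markers was not tested. All 4 erythroid genes tested rose, led by the beta globin Hbb-bs with 141 ± 22.6 CPM in VCR and 15.5 ± 3.81 CPM in NC libraries, and the list median was 2.92 (Sertoli-scaled 1.03). Of 11 T and NK cell genes 4 were tested, of which 1 rose and 2 fell, and the level summed over all 11 was 7.45 to 11.1 CPM in VCR and 15.6 to 21.5 CPM in NC libraries. Of 8 B cell genes 4 were tested, of which none rose and 2 fell, and the level summed over all 8 was 5.64 to 11.5 CPM in VCR and 17.3 to 25.8 CPM in NC libraries. Cd3d, a T cell receptor subunit, fell to 0, 1.29, 2.36 and 1.98 CPM in VCR, against 9.75, 9.36, 7.56 and 11.3 CPM in NC libraries, and Zap70, a kinase of the same receptor, fell with -2.46 (SE 0.47). Cd4, a T cell coreceptor, went the other way, with 6.63, 5.01, 5.11 and 3.35 CPM in VCR, against 1.1, 1.29, 0.776 and 1.35 CPM in NC libraries; its log2 fold change of 2.14 (SE 0.35) became 0.26 and was not called with Sertoli scaling. Pax5, the B cell transcription factor, had 0, 0.0759, 0.852 and 0 CPM in VCR, against 7.55, 6.78, 5.91 and 3.6 CPM in NC libraries, and limma voom with a variance per group did not call it. Of 6 Schwann cell and nerve genes 3 rose and 3 fell, beside 42.1% of all genes higher and 35.6% lower.

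**Figure D1:**
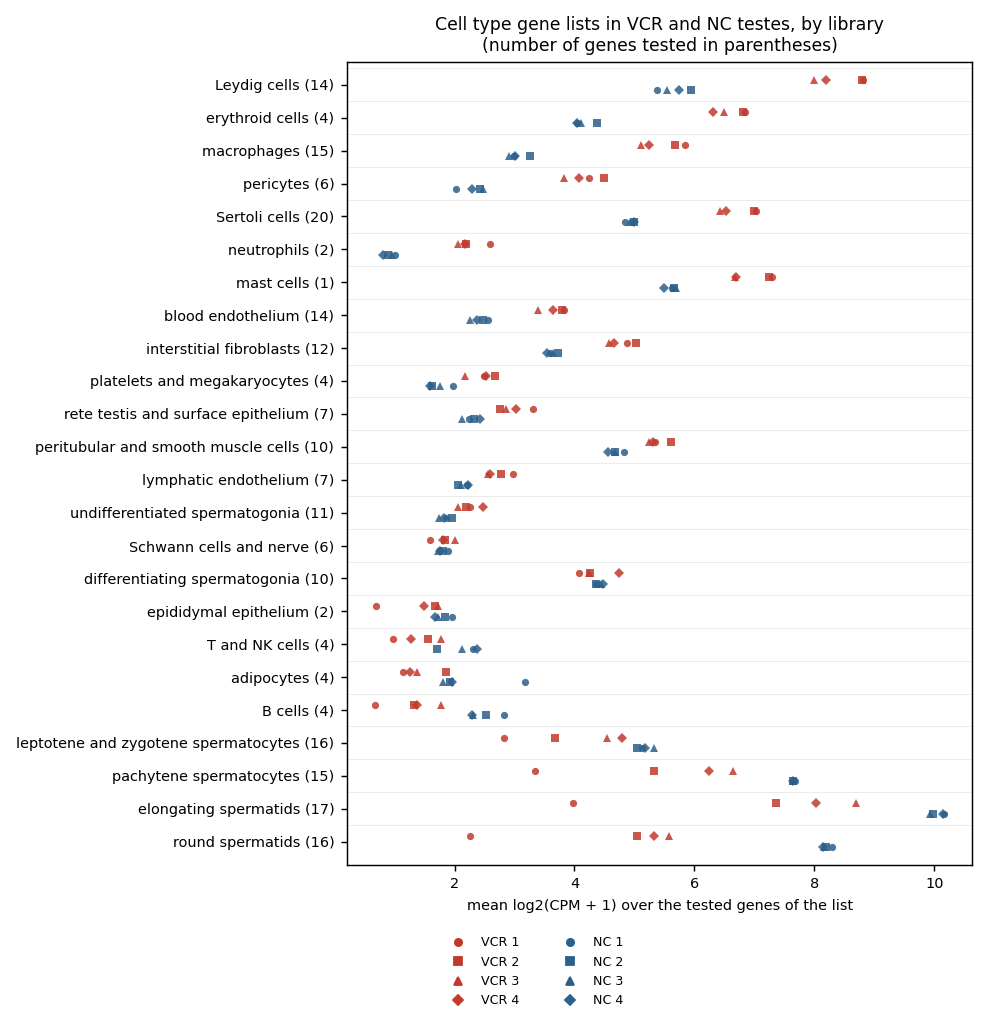
Mean log2(CPM + 1) over the tested genes of 24 cell type lists, 1 point per library, with VCR in red above NC in blue and marker shapes for libraries 1 to 4. All 4 VCR points lie right of all 4 NC points for Leydig cells, macrophages and Sertoli cells and left of them for round spermatids, where VCR 1 is at 2.26.

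Paralogous pairs gave a reading within each library that no scaling can move. In 30 pairs of a germ cell copy and its somatic counterpart, the germ cell copy fell in 27 and was not called in 3, while the somatic copy rose in 20, fell in 6 and was not called in 4. A lower germ cell copy and a higher somatic copy came together in 18 pairs, and both copies fell in 5. These counts rest on the scaling: with Sertoli scaling the germ cell copy fell in all 30, the somatic copy rose in 4, fell in 17 and was not called in 9, a lower germ cell copy and a higher somatic copy came together in 4, and both fell in 17. The share of the pair's counts taken by the germ cell copy was lower in VCR in 29 of 30 pairs, and the groups did not overlap in 27 of these. Each of these 27 reached the smallest exact two-sided permutation p of 0.029 (adjusted over the 30 pairs 0.0306). The germ cell paralog share differed by a median of -31.9 percentage points over the pairs, and by -18.7 points without VCR 1. Shares are of counts, without a correction for transcript length, and near-identical copies may exchange reads.

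In pairs of glycolytic enzymes the germ cell copy took a smaller share of counts. Pgk2, the phosphoglycerate kinase of meiotic and later germ cells, had 18.3, 207, 500 and 312 CPM in VCR, against 1320, 1220, 1290 and 1220 CPM in NC libraries. Pgk1, its X-linked counterpart, had 85.4 to 156 CPM in VCR and 30 to 34.7 CPM in NC libraries. Pgk2 therefore took 57.6% ± 33.2 of the pair in VCR and 97.5% ± 0.21 in NC libraries, with the lowest share in VCR 1. Gapdhs, the sperm form of glyceraldehyde-3-phosphate dehydrogenase, had 42.2, 489, 975 and 560 CPM in VCR, against 2960, 2470, 2300 and 2470 CPM in NC libraries. Its share with Gapdh was 29.8% ± 20.9 in VCR and 84.0% ± 1.07 in NC libraries. Gapdh itself, often used as a constant reference gene, had a log2 fold change of 1.24 (SE 0.18), which became -0.68 under Sertoli scaling. Aldoa, a glycolytic aldolase, did not pass the test at 0.11 (SE 0.15), but was called higher under library size alone and lower under Sertoli scaling (-1.80), while its germ cell copy Aldoart1 fell with -2.90 (SE 0.58).

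Ribosome and chaperone pairs shifted towards the somatic copy as well. Rpl39l, a ribosomal protein variant of germ cells, took 22.3% of its pair with the X-linked Rpl39 in VCR and 86.8% in NC libraries on average. Hspa2, the chaperone of meiotic cells, averaged 295 ± 218 CPM in VCR and 888 ± 48.2 CPM in NC libraries. Its counterpart Hspa8 averaged 1566 ± 359.5 CPM in VCR and 529 ± 49.4 CPM in NC libraries (Sertoli-scaled log2 fold change -0.34).

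A few pairs went another way. Both lactate dehydrogenase copies fell, Ldhc with a log2 fold change of -1.88 (SE 0.59), not called in a fit of the 8 libraries alone, and Ldha with -1.28 (SE 0.33), and the Ldhc share was 66.2% in VCR and 83.0% in NC libraries. The single pair with a higher germ cell share was Cstf2t and Cstf2, polyadenylation factors. The Cstf2t share was 48.1% ± 6.64 in VCR and 25.5% ± 2.50 in NC libraries. There the X-linked Cstf2 fell, with 33.5, 48.0, 44.7 and 39.9 CPM in VCR against 101 to 123 CPM in NC libraries, while Cstf2t had 30.6 to 53.8 CPM in VCR and 32.6 to 42.5 CPM in NC libraries. The groups overlapped for Gk2 with Gk (exact permutation p = 0.457) and for Utp14b with Utp14a (exact permutation p = 0.0857). VCR 1 had the lowest germ cell share in 28 pairs and VCR 3 the highest in 24.

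**Figure D2:**
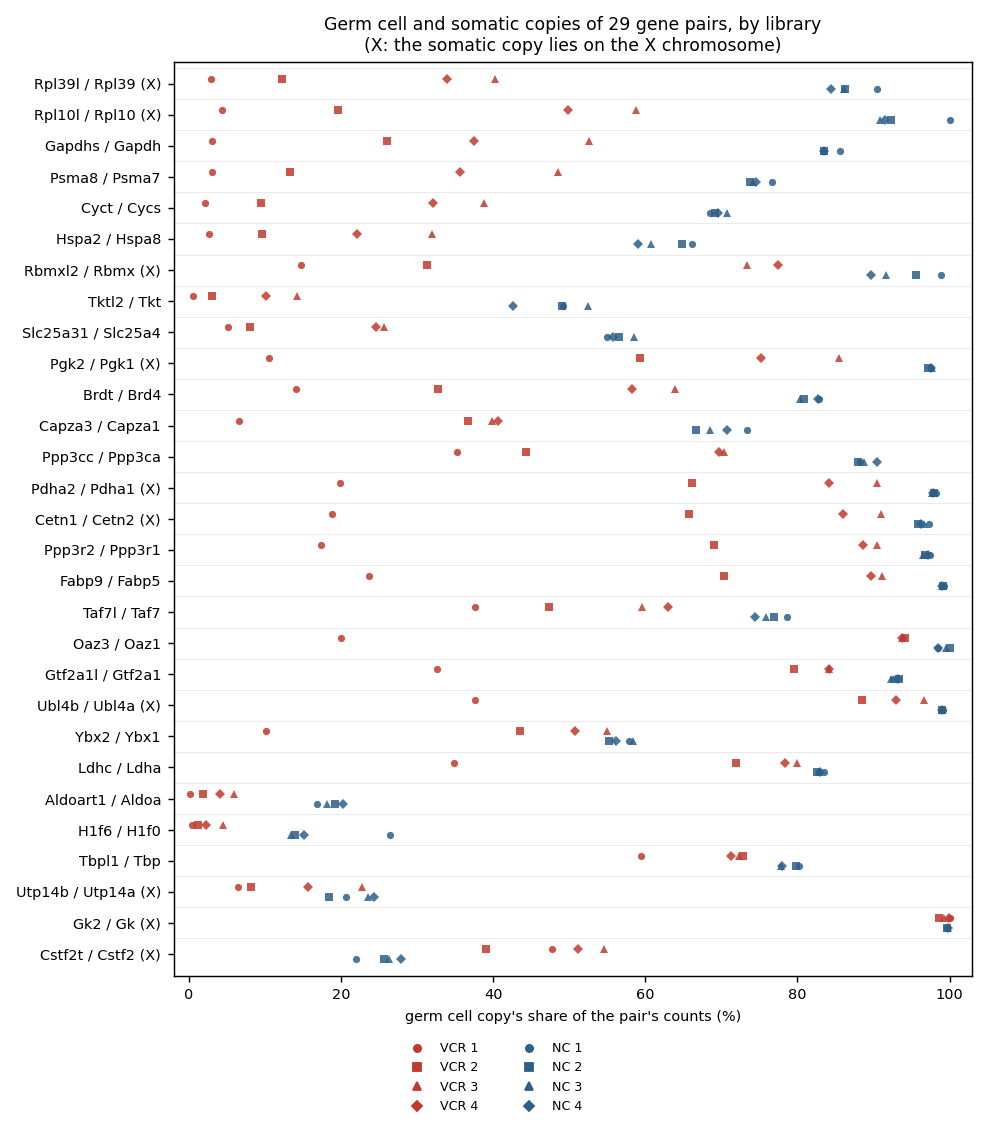
Share of each pair's counts taken by the germ cell copy, in percent, for 29 of the 30 pairs and 1 point per library, with VCR in red above NC in blue. The VCR points lie left of the NC points in 26 of the pairs shown, VCR 1 is the leftmost in 27, and Cstf2t with Cstf2 runs the other way.

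The X chromosome took a larger share of counts in VCR libraries. It took 2.84%, 2.60%, 1.88% and 2.10% of counts in VCR libraries 1 to 4, against 1.43%, 1.41%, 1.48% and 1.45% in NC libraries 1 to 4, a difference of 0.912 percentage points (exact two-sided permutation p = 0.029, the smallest allowed). Every VCR library exceeded every NC library, and the difference was 1.10 points with mitochondrial counts left out and 1.31 points without the 100 most abundant genes. Of 728 X-linked genes tested, 380 rose (52.2%) and 229 fell, with a median of 0.96 that turned to -0.93 under Sertoli scaling. The median over 15368 autosomal genes was 0.10, and single autosomes ranged between -0.15 and 0.24. Ddx3x, an X-linked RNA helicase, had 214, 180, 138 and 125 CPM in VCR, against 31.4, 39.7, 35.6 and 37.0 CPM in NC libraries. In 10 of the 30 pairs an X-linked somatic copy faces an autosomal germ cell copy, and in 7 of these the first rose and the second fell, against 1 with Sertoli scaling, where 5 of the 10 X-linked copies fell.

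Most Y-linked genes fell (84.4%, beside 35.6% of all genes), and 2 rose. Of 45 Y-linked genes tested 38 fell, 2 rose and the rest were not called, with a median of -2.94, and multicopy models among the 38 may share reads. The 2 that rose were the single-copy genes Kdm5d, a histone demethylase, and Ddx3y, an RNA helicase and partner of Ddx3x, both named after their values were seen. Kdm5d averaged 46.15 ± 13.93 CPM in VCR and 9.618 ± 1.345 CPM in NC libraries, a log2 fold change of 2.26 (SE 0.23). Ddx3y averaged 54.39 ± 15.98 CPM in VCR and 11.74 ± 1.471 CPM in NC libraries, a log2 fold change of 2.21 (SE 0.21; Sertoli-scaled 0.29). The zinc finger genes Zfy1 and Zfy2, which act in meiosis, fell with log2 fold changes of -2.45 (SE 0.47) and -2.37 (SE 0.45).

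**Figure D3:**
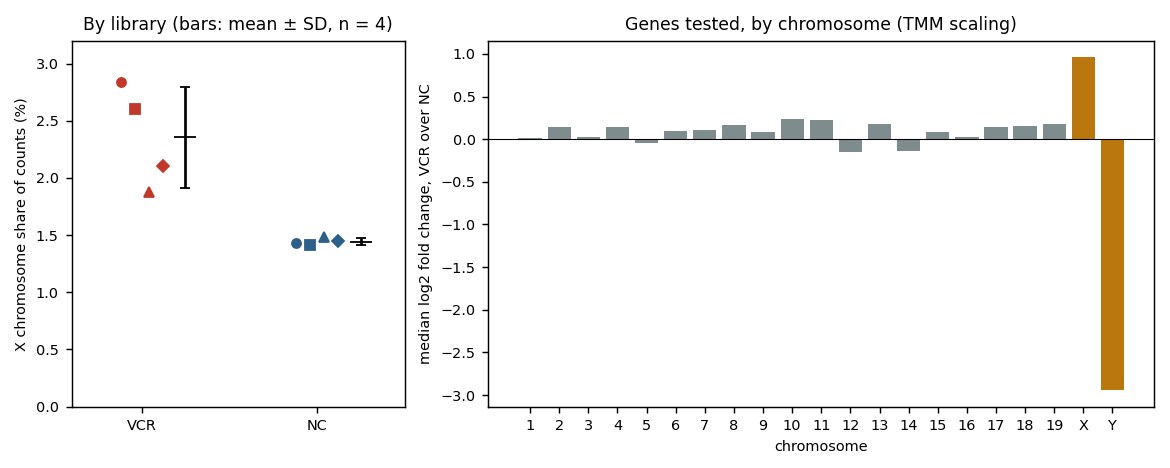
Left, X-linked share of counts in percent, 1 point per library with mean ± SD (n = 4 each), VCR left of NC; right, median log2 fold change (VCR over NC, TMM scaling) of the tested genes of each chromosome. The X share is 1.88% to 2.84% in VCR and 1.41% to 1.48% in NC libraries, and the chromosome medians stand at 0.96 for X and -2.94 for Y beside -0.15 to 0.24 for the autosomes; under Sertoli scaling the X median is -0.93.

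Digestion and clearance genes rose almost as a block under TMM scaling. Of 30 lysosome genes 29 rose and none fell, with a median of 2.34 (Sertoli-scaled 0.42). With Sertoli scaling 16 of them rose and 7 fell. Laptm5, a lysosomal membrane protein of blood-derived cells, had 36.4, 43.4, 23.9 and 24.0 CPM in VCR, against 1.83, 2.91, 1.94 and 2.10 CPM in NC libraries. Tpp1, a lysosomal peptidase of most cell types, had 83.7, 86.7, 58.7 and 58.3 CPM in VCR, against 10.6, 12.8, 11.3 and 13.5 CPM in NC libraries. The groups did not overlap for either gene, and the log2 fold changes were 3.86 (SE 0.26) for Laptm5 and 2.57 (SE 0.17) for Tpp1. Of 19 genes for engulfment of dead cells 16 rose and 2 fell (median 2.13, Sertoli-scaled 0.22). Stab1, a scavenger receptor for phosphatidylserine, had 371, 399, 264 and 229 CPM in VCR, against 28.1, 32.5, 29.2 and 31.4 CPM in NC libraries. Adgrb1, another receptor for dying cells, fell with 0.609, 2.05, 3.15 and 3.65 CPM in VCR, against 9.38, 15.5, 9.60 and 8.25 CPM in NC libraries. Autophagy genes did not share this direction: of 25, 13 rose and 11 fell, with a median of 0.23 (Sertoli-scaled -1.62). Their shares were 52.0% and 44.0%, beside 42.1% and 35.6% of all genes.

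Cell type markers moved in the libraries in which the function lists were read. The autophagy list had a mean log2(CPM + 1) of 5.74 in VCR and 5.73 in NC libraries, but 13 of its 25 genes rose and 11 fell. Its summed level was 1620 to 2260 CPM in VCR and 2690 to 2810 CPM in NC libraries. The macrophage list had a mean log2(CPM + 1) of 5.85, 5.68, 5.11 and 5.25 in VCR libraries, against 2.99, 3.26, 2.91 and 3.01 in NC libraries, without overlap. The Leydig and Sertoli lists rose and the spermatid lists fell in the same libraries, and the part of cell makeup in the rise or fall of the function lists and families was not tested.

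Most innate immune genes rose under TMM scaling, from sensors to effectors. With Sertoli scaling 6 nucleic acid sensing genes rose and 5 fell. For Toll-like receptors and inflammasome these counts were 7 and 6, and for the IL-6 family and JAK-STAT signalling 5 and 8. Of 21 nucleic acid sensing genes 18 rose and none fell (median 2.04, Sertoli-scaled 0.17). Mavs, the adaptor that relays signals from sensors of viral RNA, had 45.6, 44.4, 30.8 and 29.4 CPM in VCR, against 6.82, 7.75, 6.88 and 6.68 CPM in NC libraries. Irf1, an interferon-induced transcription factor, averaged 11.1 ± 1.90 CPM in VCR and 1.57 ± 0.548 CPM in NC libraries. Of 14 interferon-inducible GTPase genes of the Gbp and Irg families 13 rose and 1 fell (median 2.7, Sertoli-scaled 0.78). Gbp2 had 18.8, 16.7, 12.1 and 12.4 CPM in VCR, against 0.487, 1.51, 0.873 and 0.900 CPM in NC libraries. The member that fell was Gbp5, with 30.2, 33.7, 34.4 and 54.5 CPM in VCR, against 306, 247, 243 and 222 CPM in NC libraries.

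Of 22 Toll-like receptor and inflammasome genes 17 rose and 3 fell (median 2.30, Sertoli-scaled 0.39). Gsdmd, the pore protein of pyroptosis, had 64.2, 50.1, 34.3 and 34.8 CPM in VCR, against 3.17, 3.34, 3.88 and 2.78 CPM in NC libraries. Casp4, a protease that cleaves it, had 11.4, 7.59, 4.66 and 6.08 CPM in VCR, against 0.122, 0.323, 0.291 and 0.0750 CPM in NC libraries. The cytokine of this pathway went the other way: Il1b, interleukin-1 beta, had 1.22, 1.44, 1.70 and 1.90 CPM in VCR, against 3.41, 3.98, 3.59 and 3.15 CPM in NC libraries. Nlrc4, an inflammasome sensor, also fell (-0.89, SE 0.22), and lost its call under library size alone. Of 25 genes of the IL-6 family and JAK-STAT signalling 20 rose and 3 fell, with a median of 1.87 (Sertoli-scaled -0.03). Stat6, which acts downstream of interleukin-4, rose with 2.44 (SE 0.19). Stat4, known from interleukin-12 signalling in lymphocytes, had 3.73, 47.7, 107 and 68.1 CPM in VCR, against 403, 369, 402 and 383 CPM in NC libraries. The strain lacks mature lymphocytes, and which cells carry the Stat4 RNA was not tested. These 2 transcription factors of one family moved in opposite directions, each without overlap between the groups. Of 21 chemokine genes 13 rose and 3 fell (median 2.76, Sertoli-scaled 0.94), with Cxcl16 at 3.04 (SE 0.25).

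Most plasma protein, iron and eicosanoid genes rose under TMM scaling as well. Of 20 coagulation and fibrinolysis genes 16 rose and 2 fell (median 2.28, Sertoli-scaled 0.42). Serping1, the inhibitor of complement C1 and of the contact system, had 601, 465, 278 and 424 CPM in VCR, against 42.0, 54.6, 47.2 and 48.5 CPM in NC libraries. The members that fell were F5, coagulation factor V, with 4.72, 13.7, 24.5 and 16.6 CPM in VCR against 59.0, 52.7, 61.2 and 62.9 CPM in NC libraries, and Proc, the protein C precursor, with a log2 fold change of -2.63 (SE 0.42). Of 18 iron handling genes 15 rose and 2 fell (median 2.14, Sertoli-scaled 0.23). Slc40a1, the iron exporter ferroportin, rose with 2.97 (SE 0.24). The 2 iron regulatory proteins, which bind the same RNA element, moved apart: Aco1 had 128, 138, 84.6 and 92.8 CPM in VCR against 23.6, 25.1, 25.4 and 26.1 CPM in NC libraries (Sertoli-scaled 0.23, not called). Ireb2 had 95.7, 93.8, 85.8 and 90.6 CPM in VCR, against 160, 191, 204 and 163 CPM in NC libraries. Of 18 eicosanoid genes 14 rose and 1 fell (median 2.26, Sertoli-scaled 0.34), with Ptgis, prostacyclin synthase, at 2.40 (SE 0.20) and Ptges, a prostaglandin E synthase, at 2.41 (SE 0.24).

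**Figure D4:**
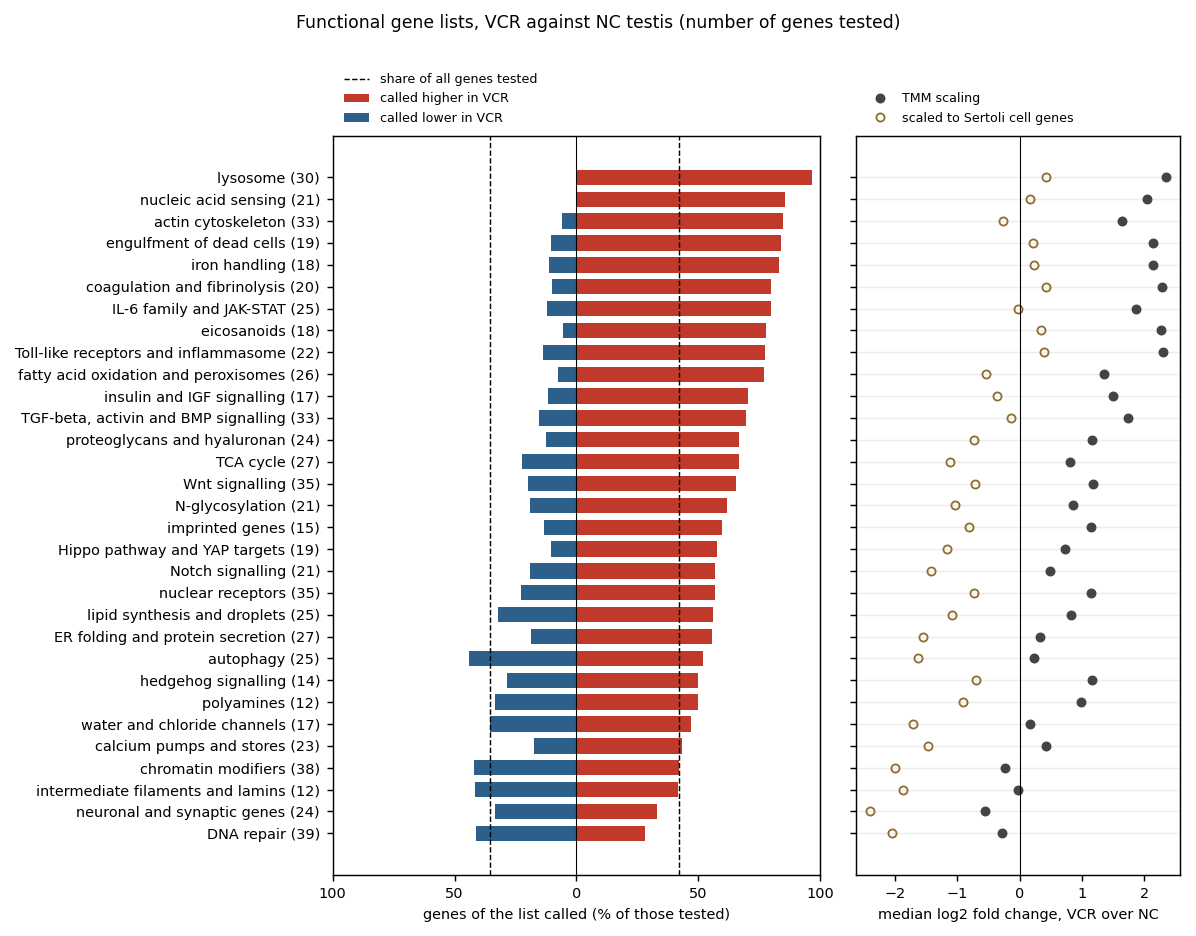
Left, percent of the tested genes of 31 function lists called lower (blue) and higher (red) in VCR than in NC testes, with dashed lines at the shares over all genes, 35.6% and 42.1%; right, list medians of the log2 fold change, VCR over NC, under TMM (filled) and Sertoli (open) scaling. Lysosome is at the top with a median of 2.34 that becomes 0.42, and DNA repair at the bottom with -0.28 that becomes -2.04; the lists are sorted by the percent called higher, not by median.

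Signalling pathways had genes called in both directions, beside 42.1% of all genes higher and 35.6% lower. Among TGF-beta, activin and BMP genes 23 of 33 rose and 5 fell (median 1.74, Sertoli-scaled -0.14). Inha, the inhibin alpha subunit made by Sertoli cells, had 991, 915, 651 and 648 CPM in VCR, against 169, 185, 163 and 185 CPM in NC libraries. Smad3, which carries activin and TGF-beta signals, rose with 2.93 (SE 0.20), and Smad6, an inhibitory member, had 1.30, 1.59, 1.57 and 2.59 CPM in VCR, against 40.2, 39.3, 29.5 and 30.5 CPM in NC libraries. Among Wnt genes 23 of 35 rose and 7 fell (median 1.18, Sertoli-scaled -0.72). The ligand Wnt4 had 43.4, 28.6, 22.6 and 22.5 CPM in VCR, against 0.122, 0.753, 0.291 and 0.3 CPM in NC libraries. The receptor Fzd1 rose with 2.42 (SE 0.23), whereas Lgr5, a receptor for R-spondins, and Znrf3, a ligase that removes Wnt receptors, fell with -1.63 (SE 0.17) and -1.99 (SE 0.28). Wnt4 stayed under 1 CPM in every NC library, and its log2 fold change was 6.28 (SE 0.57).

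Hippo and Notch genes had lower medians, while the hedgehog median lay near that of the Wnt genes. Among hedgehog genes 7 of 14 rose and 4 fell (median 1.16, Sertoli-scaled -0.70). Their shares of 50.0% and 28.6% lie near the 42.1% and 35.6% of all genes. The co-receptor Boc rose with 2.51 (SE 0.19), while the transcription factor Gli2 had 1.14, 3.19, 3.08 and 3.12 CPM in VCR, against 17.5, 13.1, 17.8 and 17.7 CPM in NC libraries. Sufu, which holds Gli factors back, fell with -2.61 (SE 0.40). Among Hippo genes 11 of 19 rose and 2 fell (median 0.73, Sertoli-scaled -1.16), and the 2 that fell were the core kinase Lats2 (-2.07, SE 0.20) and the coactivator Wwtr1 (-1.24, SE 0.24). Among Notch genes 12 of 21 rose and 4 fell (median 0.48, Sertoli-scaled -1.42). Of 17 insulin and IGF genes 12 rose and 2 fell (median 1.5, Sertoli-scaled -0.37). Igfbp3, an IGF carrier, had 11.1, 12.9, 13.5 and 7.68 CPM in VCR, against 0.487, 0.215, 0.388 and 0.375 CPM in NC libraries, and Pappa, a protease of IGF carriers, fell with -1.56 (SE 0.13).

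Among nuclear receptors 20 of 35 rose and 8 fell (median 1.15, Sertoli-scaled -0.73). Their shares were 57.1% and 22.9%, beside 42.1% and 35.6% of all genes. Nr5a1, which drives steroid synthesis genes in Leydig and Sertoli cells, rose with 2.87 (SE 0.21). Rora, an orphan receptor, fell, with 6.40, 12.0, 17.7 and 11.9 CPM in VCR, against 42.1, 39.6, 41.6 and 51.0 CPM in NC libraries. Rarb, a retinoic acid receptor, averaged 0.857 ± 0.168 CPM in VCR and 2.7 ± 0.209 CPM in NC libraries.

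Metabolic lists held isoforms that moved apart. Of 26 fatty acid oxidation and peroxisome genes 20 rose and 2 fell (Sertoli-scaled median -0.54). Cpt1a, the liver form of the enzyme that admits fatty acids to mitochondria, had 232, 260, 187 and 163 CPM in VCR, against 34.0, 48.1, 40.3 and 37.7 CPM in NC libraries. Cpt1b, the muscle form, had 26.7, 107, 315 and 223 CPM in VCR, against 597, 575, 574 and 556 CPM in NC libraries. Crat, carnitine acetyltransferase, followed Cpt1b with 39.8, 165, 499 and 317 CPM in VCR, against 771, 824, 785 and 775 CPM in NC libraries. For Cpt1b and Crat the VCR libraries ran in the order 1, 2, 4, 3, so VCR 1 was the lowest and VCR 3 the highest, as in most germ cell shares above.

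Of 25 lipid synthesis and droplet genes 14 rose and 8 fell (median 0.82, Sertoli-scaled -1.08). Their shares were 56.0% and 32.0%, beside 42.1% and 35.6% of all genes. Soat1, which esterifies cholesterol, rose with 2.19 (SE 0.18; Sertoli-scaled 0.28), and Dgat2, which makes triacylglycerol, fell with -2.80 (SE 0.43). Of 27 TCA cycle genes 18 rose and 6 fell (median 0.80, Sertoli-scaled -1.12), with the cytosolic dehydrogenase Idh1 at 2.54 (SE 0.21) and Ogdh, a subunit of the oxoglutarate dehydrogenase complex, at -1.99 (SE 0.41). Among 12 polyamine genes 6 rose and 4 fell (median 0.98, Sertoli-scaled -0.90), shares of 50.0% and 33.3% that lie near those of all genes. Sat1, which starts polyamine breakdown, had 53.4, 34.3, 22.4 and 28.3 CPM in VCR, against 4.39, 5.81, 6.50 and 4.43 CPM in NC libraries. Odc1, which starts polyamine synthesis, had 180, 251, 381 and 302 CPM in VCR, against 593, 663, 645 and 574 CPM in NC libraries. Azin2, which protects Odc1 from its antizyme, fell with -1.75 (SE 0.36).

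Cytoskeletal lists differed from each other. Of 33 actin cytoskeleton genes 28 rose and 2 fell (median 1.64, Sertoli-scaled -0.26). Ezr, ezrin, which ties actin to the membrane, had 226, 197, 104 and 111 CPM in VCR, against 16.1, 19.5, 16.9 and 19.3 CPM in NC libraries. Rdx, the related radixin, had 2.13, 12.7, 42.4 and 27.6 CPM in VCR, against 147, 107, 132 and 130 CPM in NC libraries. Lcp1, an actin bundler of leukocytes, rose with 3.93 (SE 0.31). Of 12 intermediate filament and lamin genes 5 rose and 5 fell (median -0.02, Sertoli-scaled -1.87), and 3 fell without VCR 1. The shares, 41.7% in each direction, lie near the 42.1% higher and 35.6% lower of all genes. Vim, the vimentin of somatic cells, had 864, 778, 469 and 538 CPM in VCR, against 101 to 111 CPM in NC libraries. Lmnb2, a B-type lamin, had 4.11, 19.3, 23.0 and 16.9 CPM in VCR, against 281, 272, 223 and 259 CPM in NC libraries.

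Integrins and channels had genes called in both directions. Of 27 integrin genes 14 rose and 5 fell (median 1.16, Sertoli-scaled -0.67), with Itga5, a fibronectin receptor subunit, at 3.27 (SE 0.24) and Itga1, a collagen receptor subunit, at -2.40 (SE 0.31). Of 17 water and chloride channel genes 8 rose and 6 fell (median 0.17, Sertoli-scaled -1.70), shares of 47.1% and 35.3% that lie near the 42.1% and 35.6% of all genes. Aqp2, a water channel best known from the kidney collecting duct, had 281, 229, 84.7 and 162 CPM in VCR, against 6.33, 10.3, 4.75 and 4.88 CPM in NC libraries. Aqp7, a water and glycerol channel, had 1.22, 9.72, 19.1 and 14.0 CPM in VCR, against 93.9, 84.8, 88.2 and 91.4 CPM in NC libraries.

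DNA repair and chromatin genes were called in both directions. Of 39 DNA repair genes 11 rose and 16 fell (median -0.28, Sertoli-scaled -2.04), and of 38 chromatin modifier genes 16 rose and 16 fell (median -0.23, Sertoli-scaled -1.99). The chromatin shares, 42.1% in each direction, lie near the 42.1% higher and 35.6% lower of all genes. Ercc1, an excision repair subunit, fell with -0.83 (SE 0.13). Dnmt3l, a DNA methyltransferase cofactor of germ cells, averaged 0.313 ± 0.202 CPM in VCR and 3.33 ± 0.364 CPM in NC libraries. Suv39h2, a histone methyltransferase, had 7.14 to 10.8 CPM in VCR and 33.4 to 35.8 CPM in NC libraries, and Hdac7, a histone deacetylase, rose with 2.90 (SE 0.31). Of 27 genes of ER folding and protein secretion 15 rose and 5 fell (median 0.32, Sertoli-scaled -1.54). Ssr3, a subunit beside the protein translocation channel, rose with 2.49 (SE 0.20). Creld2 and Herpud1, which are induced by ER stress, fell with -2.20 (SE 0.29) and -1.43 (SE 0.26).

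**Figure D5:**
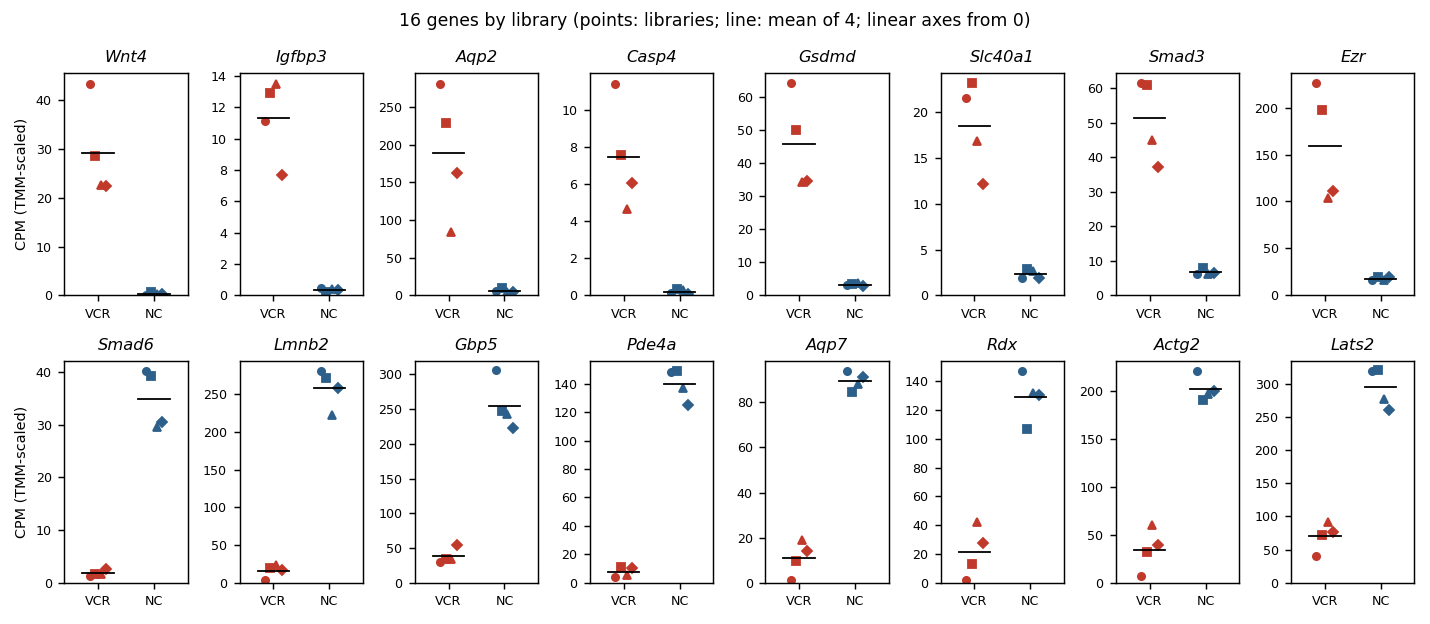
CPM of 16 genes on linear axes from 0, VCR left of NC, with circles, squares, triangles and diamonds for libraries 1 to 4 and a line at each mean. In the upper row, led by Wnt4 with 22.5 to 43.4 CPM in VCR and 0.122 to 0.753 CPM in NC libraries, all VCR points lie above all NC points, and in the lower row, from Smad6 to Lats2, all lie below them.

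Gene families sorted by name gave further counts. All 9 annexin genes rose (median 2.58, Sertoli-scaled 0.67), as did 7 of 8 S100 genes (median 2.59, Sertoli-scaled 0.70) and 8 of 10 caspases (median 1.99, Sertoli-scaled 0.10). Anxa6, a calcium-dependent membrane-binding protein, rose with 2.98 (SE 0.23), and S100a1, a calcium sensor, with 2.84 (SE 0.20). Of 22 glutathione S-transferase genes 13 rose and 4 fell (median 2.13, Sertoli-scaled 0.24). Gstt1 had 32.2, 31.3, 18.2 and 20.5 CPM in VCR, against 5.73, 5.49, 4.85 and 4.35 CPM in NC libraries. Gstt4 had 4.11, 43.2, 92.7 and 67.2 CPM in VCR, against 394, 377, 353 and 377 CPM in NC libraries, so these detoxification enzymes of 1 class moved in opposite directions. Within cAMP signalling, Adcy7, a membrane adenylyl cyclase, rose with 2.36 (SE 0.21). Adcy10, the soluble cyclase of sperm, had 2.82, 26.6, 70 and 34.9 CPM in VCR, against 218, 256, 248 and 224 CPM in NC libraries. Pde4a, a phosphodiesterase, had 3.89, 10.9, 5.25 and 10.6 CPM in VCR, against 148, 149, 137 and 125 CPM in NC libraries. Of 57 protocadherin genes 21 rose and 19 fell (median 0.16, Sertoli-scaled -1.69), shares of 36.8% and 33.3% beside 42.1% and 35.6% of all genes, with Pcdhgc3 at 2.98 (SE 0.27) and Pcdha1 at -5.24 (SE 0.58), and the genes of a protocadherin cluster share exons.

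Most genes of the cilia, centrosome and nuclear pore families fell, beside 42.1% of all genes higher and 35.6% lower. The shares lower were 78.9% for Cep, 78.6% for Ift and 71.4% for nucleoporin genes. They were 63.7% for Ccdc genes and 59.5% for models without a proper name. Of 38 Cep centrosomal genes 30 fell and 2 rose (median -1.41), and of 14 Ift genes of intraflagellar transport 11 fell and 1 rose (median -1.35). Ift57 had 9.98, 19.2, 32.9 and 47.5 CPM in VCR, against 145, 137, 111 and 98.3 CPM in NC libraries. Cep76 had 14.6, 20.2, 28.3 and 23.0 CPM in VCR, against 57.7, 53.8, 55.2 and 53.9 CPM in NC libraries. Of 21 nucleoporin genes 15 fell and 3 rose (median -1.04), with Nup50 at -1.24 (SE 0.14). Of 135 Ccdc genes, named only for a coiled coil, 86 fell and 28 rose (median -1.5). Among 735 gene models without a proper name, 437 fell and 149 rose (median -1.63). Symbols that start with Rab and a digit take in RAB GTPases and proteins named for binding them. Of 61 such genes 40 rose (65.6%) and 8 fell (13.1%), with a median of 0.74 (Sertoli-scaled -1.10).

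Of 15590 tested symbols in no list, 12066 were called, which is 77.4% beside 77.7% of all genes. Among the largest rises was Klk1b27, a kallikrein, with 277, 287, 70.6 and 139 CPM in VCR, against 4.87, 7.53, 6.69 and 7.28 CPM in NC libraries. Lrg1, a secreted leucine-rich glycoprotein, had 122, 63.6, 55.1 and 94.5 CPM in VCR, against 1.46, 5.70, 1.55 and 2.33 CPM in NC libraries. Both rose in every VCR library, and their spread within VCR was wide. Clca3a2, of a family of chloride channel regulators, had 49.8, 31.7, 17.3 and 20.8 CPM in VCR, against 0.244, 0.431, 0.679 and 0.675 CPM in NC libraries. Ly6d, a small surface antigen, had 34.6, 40.6, 14.8 and 17.2 CPM in VCR, against 0.853, 1.18, 0.582 and 0.3 CPM in NC libraries. Neither reached 2 CPM in any NC library. Trim2, a ubiquitin ligase, had 59.3, 36.2, 25.2 and 26.8 CPM in VCR, against 0, 1.83, 0 and 0 CPM in NC libraries. C1rb, a copy of complement C1r, had 10.1, 123, 3.87 and 3.65 CPM in VCR, against 0.487, 0.108, 0.679 and 1.88 CPM in NC libraries, and its mean rested on VCR 2.

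Falls outside the lists were as follows. Spam1, the sperm hyaluronidase, had 0.0762, 0.911, 0.590 and 1.29 CPM in VCR, against 32.5, 32.9, 33.5 and 26.4 CPM in NC libraries. Tssk5, a testis-specific kinase, had 0, 1.29, 0.393 and 1.22 CPM in VCR, against 56.8, 48.3, 47.7 and 44.3 CPM in NC libraries. Lrriq4, Tex36 and Mroh9 fell with log2 fold changes of -5.49 (SE 0.66), -4.84 (SE 0.74) and -5.34 (SE 0.77). Of the 2 genes in the title of the study, Tssk4, another kinase of this family, had 0, 5.54, 8 and 3.50 CPM in VCR, against 121, 106, 99.0 and 107 CPM in NC libraries. Ccdc159 had 0, 0.0759, 14.0 and 5.63 CPM in VCR, against 51.4, 44.1, 48.1 and 43.1 CPM in NC libraries. VCR 1 was the lowest library for each of these 4 genes with values given. Among very abundant genes, Akap12, a scaffold of protein kinase A, had 240, 1300, 2070 and 1340 CPM in VCR, against 5260, 5280, 4950 and 4790 CPM in NC libraries. Pabpc1, the main poly(A)-binding protein, had 370, 872, 1890 and 1560 CPM in VCR, against 3810, 3800, 3830 and 3630 CPM in NC libraries. Ubb, a ubiquitin precursor, fell less, with -0.82 (SE 0.20).

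A small set of abundant genes held its level under TMM scaling. Of 1247 genes with at least 100 CPM in both groups, 197 had a 95% interval of the log2 fold change within 0.5 either way. Dhx15, a splicing helicase, had 155, 152, 168 and 160 CPM in VCR, against 140, 169, 174 and 151 CPM in NC libraries. Ddx24, an RNA helicase, had 186, 206, 208 and 200 CPM in VCR, against 187, 209, 204 and 195 CPM in NC libraries. The groups overlapped for both, and Lman2, a lectin of the secretory pathway, averaged 108.1 ± 6.29 CPM in VCR and 108 ± 6.06 CPM in NC libraries. Xrn2, a nuclear exonuclease, Gstm7, a glutathione S-transferase, and Elovl2, a fatty acid elongase, had log2 fold changes between 0.00 and 0.01. Under Sertoli scaling these 6 genes lay between -1.87 and -1.80, and library size alone called all 6 higher, so they were level only relative to the median of all genes.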

How the data were processed

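Testis RNA of 4 VCR and 4 NC libraries was analysed within the table of 20 libraries. The authors deposited whole-number read counts per gene symbol. The submitters' processing notes name Trimmomatic 0.39, STAR 2.7.10b, featureCounts of Subread 2.0.3, DESeq2 1.36.0 and the build GRCm39 (mm39). Per the labels' protocols, the kit was directional and RNA was poly(A)-selected. The strand setting of the counting is not given in the sources used here, so overlapping and antisense genes may share reads, as may near-identical copies. All libraries carry the same batch label.

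Counts were fitted with edgeR 4.0.16 in R 4.3.3 (filterByExpr with a minimum count of 10, TMM scaling, robust quasi-likelihood test over 5 groups), which shares 1 estimate of the spread over the 20 libraries. The contrast was VCR minus NC, genes with a p under 0.05 after Benjamini-Hochberg adjustment over the 16534 genes were called, and calls beyond 2-fold came from glmTreat. Exact permutation tests were run for shares of counts. The script was tested on simulated data. Alternatives used limma 3.58.1 voom, DESeq2 1.42.0, other scalings and filters, only the 8 libraries, a replicate block and leaving out each library.

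The 55 gene lists, 30 pairs and 44 symbol families were chosen with earlier results of these data known. Named genes are, by a set rule, the 2 higher and 2 lower members of each list with the smallest adjusted p, the genes outside the lists with the largest fold or the largest change in CPM, abundant genes nearest a log2 fold change of 0, 1 member a direction of each family, and members of the largest pairs. The text leaves some of these out. A few named by the rule are not reported here, and 1 pair is counted but not plotted. Promoters came from RefSeq tables of GRCm38.p6, matched by symbol for 12787 genes. Depth was 9425158 to 14976476 counts a library.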

Additional observations from a re-analysis of the deposited data

Results flagged for a closer look

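In each group of 4 libraries, the gap between the most distant library and its nearest neighbour was divided by the range of the group. A large ratio was found in 22 of 450 groups of values examined (4.89%), and chance alone gives about 1 in 20. None of these was weighed further.

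Within VCR, 8 of the 10 such groups stood out through VCR 1, which was also the lowest library for most falling genes. The VCR 1 library was low for Gli2 (1.14 CPM, ratio 0.947) and for the round spermatid score, the mean log2(CPM + 1) of that list (2.26, ratio 0.843). It was also low for the germ cell share of Tbpl1 (59.4%, ratio 0.88), Gtf2a1l (32.6%, ratio 0.912), Oaz3 (20%, ratio 0.993), Capza3 (6.56%, ratio 0.887) and Ubl4b (37.6%, ratio 0.861). VCR 2 was high for C1rb (123 CPM, ratio 0.946) and VCR 3 for Pax5 (0.852 CPM, ratio 0.911). VCR 1 was also low for the score of neuronal and synaptic genes (1.82, ratio 0.8292).

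Within NC, the outlying values were mostly small in size. NC 2 was high for Rarb (3.01 CPM, ratio 0.851) and Trim2 (1.83 CPM, ratio 1.0) and low for Gli2 (13.1 CPM, ratio 0.936). NC 1 was high for Kit (13 CPM, ratio 0.843) and for the share of Gapdhs (85.6%, ratio 0.982), and NC 4 was low for Spam1 (26.4 CPM, ratio 0.857). Over lists, NC 1 was high for the adipocyte score (3.18, ratio 0.891) and low for fatty acid oxidation and peroxisomes (5.09, ratio 0.903), NC 2 was high for lipid synthesis and droplets (5.87, ratio 0.833) and NC 3 for Toll-like receptors and inflammasome (1.78, ratio 0.87). NC 1 was also high for the shares of Rpl10l (100% after rounding, with 1 count for Rpl10, ratio 0.83) and H1f6 (26.5%, ratio 0.866).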

How the results depend on the processing

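The count of called genes was 12851 and ran between 10646 and 13617 over the scalings, filters, tools and sample sets tried, and leaving out each library in turn gave 12127 (without VCR 2) to 13219 (without VCR 3). Sertoli scaling gave 1202 genes higher and 12415 lower, by construction, since it sets the rising Sertoli genes level. It turned the log2 fold changes of Acta2 to -0.16, Pgk1 to -0.01, Gapdh to -0.68, Cstf2t to -1.76, Aldoa to -1.80, Hspa8 to -0.34, Dhx15 to -1.84, Xrn2 to -1.87, Elovl2 to -1.80, Lman2 to -1.84, Gstm7 to -1.87 and Ddx24 to -1.83. It ended the calls of Aco1, Cd4, Inha, Soat1, Ddx3x and Ddx3y, and no other setting reversed a gene named here. Inha is among the 20 Sertoli genes that set this scaling, so its lost call is largely built in. The replicate block (8 libraries only) gave 4412 genes beyond 2-fold, and Gapdhs, Ldhc, Hspa2, C1rb and Ubb lost their calls under it. Same-numbered VCR and NC libraries did not deviate together (correlations between -0.103 and -0.00983), so they share a number only. Ldhc lost its call in the fit of the 8 libraries alone, Pax5 under voom with a variance per group and Nlrc4 under library size alone. Leaving out 1 library at a time, the X share differed by 0.751 to 1.07 percentage points and the mitochondrial share by 4.84 to 6.92 points, where 3 against 4 libraries cannot give an exact permutation p below 0.0571. Before TMM scaling, a level of 1 CPM is 9.43 to 15 counts in these libraries, and the folds of genes near it are the least certain.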

Other observations

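Lists not described above gave the following counts, beside 42.1% of all genes higher and 35.6% lower. Of 24 proteoglycan and hyaluronan genes 16 rose and 3 fell (median 1.16, Sertoli-scaled -0.73), of 21 N-glycosylation genes 13 rose and 4 fell (median 0.85, Sertoli-scaled -1.03), and of 23 genes of calcium pumps and stores 10 rose and 4 fell (median 0.43, Sertoli-scaled -1.46). Of 15 imprinted genes 9 rose and 2 fell (median 1.14, Sertoli-scaled -0.81). Of 24 neuronal and synaptic genes 8 rose and 8 fell (median -0.55). Among other cell types, 5 of 7 rete testis and surface epithelium genes rose (median 1.05, Sertoli-scaled -0.83), 2 of 4 adipocyte genes fell and 1 rose, and 1 of 4 platelet genes rose. Both neutrophil genes tested and the single mast cell gene tested rose, out of lists of 10 and 7. The epididymal list, a check for tissue carried over at dissection, had 2 tested genes, 1 higher and 1 lower.

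Among symbol families, 42 of 78 mitochondrial ribosomal protein genes rose and 17 fell, 27 of 57 translation initiation factor genes fell and 14 rose, 23 of 36 ubiquitin-conjugating enzyme genes fell and 10 rose, and 14 of 23 dual specificity phosphatase genes fell and 6 rose. Of 32 serpins 20 rose and 8 fell, and of 28 semaphorin and plexin genes 19 rose and 5 fell. Over all genes, 42.1% were higher and 35.6% lower. The shares higher in these families were, in this order, 53.8%, 24.6%, 27.8%, 26.1%, 62.5% and 67.9%. Shares lower were 21.8% for mitochondrial ribosomal proteins, 47.4% for initiation factors, 63.9% for ubiquitin-conjugating enzymes and 60.9% for dual specificity phosphatases. The medians of these 6 families were 0.37, -0.23, -0.59, -0.74, 1.30 and 1.5 (Sertoli-scaled -1.5, -2.05, -2.44, -2.54, -0.59 and -0.39), and that of the initiation factors was 0.16 under library size alone.

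Some genes were absent from 1 library of a group and counted in another. Of the 16534 genes tested, 132 in VCR and 85 in NC had no count in 1 library and at least 50 counts in another library of the same group. In VCR these include Tssk4 and Ccdc159, which were at 0 in VCR 1. Whether such genes switch on or off was not tested.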
